A study of Mus musculus with 2 samples.

Results

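The genes described here encode the proteins of the mitochondrial ribosome. They were all genes whose symbol begins with Mrpl or Mrps followed by a number and whose transcript has a probe on the array. The rule itself uses no measured values, but it was chosen with earlier results of these data known. This rule found 78 genes with 100 probes, among 20652 named genes and 39402 probes on the array. Of them, 49 have Mrpl symbols, given to proteins of the large subunit, and 29 have Mrps symbols, given to proteins of the small subunit. A total of 77 members, 48 Mrpl and 29 Mrps genes, were well above background and could be compared, as were 16346 genes in all. The remaining member, Mrpl21, did not rise clearly above background in either group.

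Liver RNA was compared between a fasting and a feeding group of male mice. The fasting group went without food overnight for 14 to 16 h, and the labels describe the feeding group both as given food after the fast and as having free access to food. Each group was 1 pool of the livers of 3 mice on 1 Agilent single-colour array, so differences between groups have no replicate check and no test was possible. The labels give no genotype or age for these mice, and the study states 8 to 12 weeks and a C57BL/6 background for its mice in general. Both arrays had 44397 spots with no saturated spot, and 63.1% of spots upon fasting and 72.3% upon feeding were well above background. All 7 hepatocyte markers examined were well above background on both arrays.

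Mitochondria translate a small set of proteins, all of them subunits of the respiratory chain and ATP synthase, on ribosomes of their own. The RNA of these ribosomes is made from mitochondrial DNA, whereas every ribosomal protein is encoded in the nucleus, made in the cytosol and imported. The large subunit joins amino acids and holds the exit tunnel for the new protein, and the small subunit reads the messenger RNA. Some of the proteins have counterparts in bacteria and others are found only in mitochondria. The liver is rich in mitochondria, which oxidise fatty acids and supply ketone bodies and glucose precursors during fasting.

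Most mitochondrial ribosomal protein genes had a somewhat higher signal upon feeding than upon fasting. Values are log2 signals after quantile normalization, which gives both arrays the same distribution of signals, and a change is the feeding value minus the fasting value. The median change over the 77 members was 0.31, with quartiles of 0.16 and 0.47 and a range from -0.29 to 1.11, while the median over all genes measured was 0. Upon feeding 70 members (90.9%) were higher and 7 were lower, and of all 14515 genes well above background on both arrays 49.8% were higher. The changes were small. At least 1.5-fold higher signals were seen for 9 members (11.7%), beside 10.5% of all genes measured and 8.61% of the bright class described next, so this share was near the background. It depended on the scaling, with 26 members (33.8%) beside 14.6% of all genes when arrays were scaled by their medians, 13 (16.9%) beside 10.2% when scaled by their 75th percentiles, and 7 (9.09%) beside 5.38% with the normexp background correction. Shares of the bright class, where most members lie, were not counted under these other settings. With quantile normalization no member was at least 1.5-fold lower, a size reached by 10.6% of all genes. Past the 2-fold threshold of the study's methods, 1 member was higher, beside 3.29% of all genes, and none was lower, beside 4.62%.

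The members are mostly bright on the array. When all genes measured were split by mean signal into 3 classes of equal size, 66 members fell into the bright class. Within that class 62 members (93.9%) were higher upon feeding, beside 51.8% of all its genes, and the median change was 0.31 for members and 0.01 for all its genes. Of the 11 members in the other classes 8 were higher, with a median of 0.35. The scatter plot of the signals on both arrays shows the members as a narrow band above the line of no change.

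**Figure D1:**
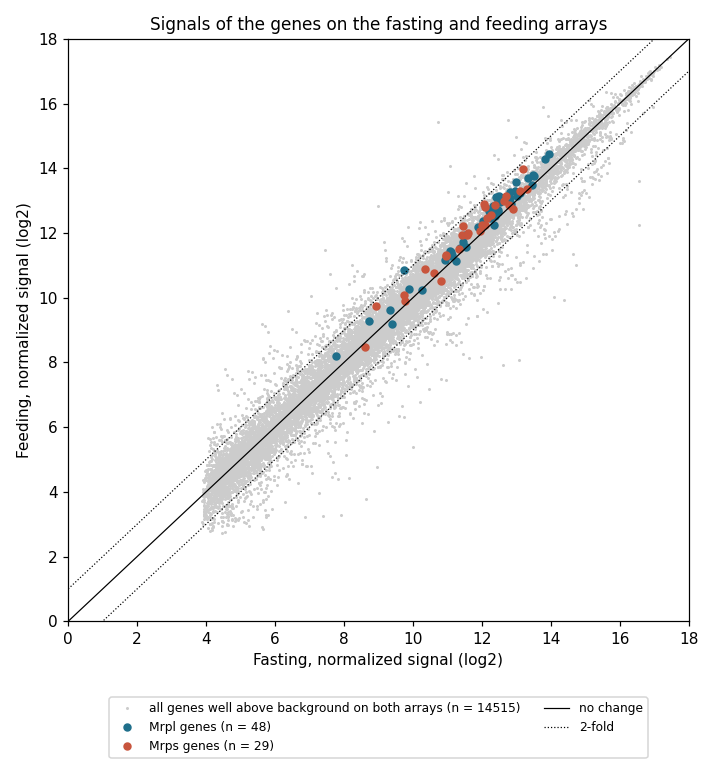
Normalized signals (log2) of each gene upon fasting (horizontal axis) and feeding (vertical axis), 1 array each. Grey points are all 14515 genes well above background on both arrays, coloured points are the 48 Mrpl and 29 Mrps genes, and the lines mark no change and 2-fold changes. Of the 77 members, 70 lie above the line of no change and 1 lies above the 2-fold line.

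The spread of replicate spots gives a measure of error that covers the measurement on the array and not differences between mice. Nor does it cover differences between probes of a gene, whose median gap was 0.20 in 21 members with several probes well above background. For probes printed several times, the difference between arrays had a median SD of 0.08 in the bright class, 0.09 in the middle class and 0.18 in the dim class. Changes of more than 2 such SDs, a limit set after the values were seen, were found upward for 57 members, downward for 3 and in neither direction for 17. Of all genes well above background on both arrays, 30.5% passed this limit upward and 30.6% downward. In the bright class 50 members passed it upward and 2 downward, beside 34.6% and 31.2% of all genes of that class.

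The members with 10 spots on each array show this spread directly. Mrpl34, a large subunit protein with a bacterial counterpart, had signals from 4617 to 5450 with a median of 5113 upon fasting, and from 6636 to 7847 with a median of 7398 upon feeding, a change of 0.52. Mrpl50, a large subunit protein found only in mitochondria, had 2757 to 2970 with a median of 2918 upon fasting and 3565 to 4151 with a median of 3967 upon feeding, a change of 0.44. The small subunit protein Mrps35 had 1178 to 1387 with a median of 1291 upon fasting and 1705 to 2128 with a median of 1909 upon feeding, a change of 0.56. In each of these genes the lowest spot upon feeding was above the highest spot upon fasting. The share of all probes printed several times with this pattern was not counted. The second probe of Mrpl50, with 1 spot on each array, gave -0.14. Spots of a probe are repeated readings of the same pools, not replicates of the groups.

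**Figure D2:**
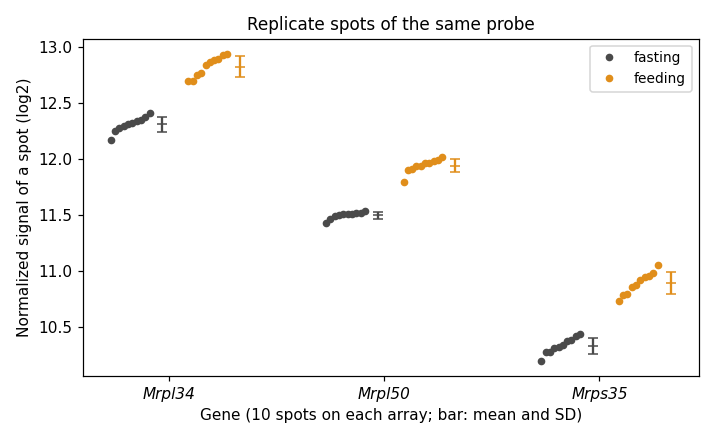
Normalized signal (log2) of each of the 10 spots of 1 probe for Mrpl34, Mrpl50 and Mrps35 on the fasting (grey) and feeding (orange) arrays, with spots sorted by value and bars for the mean and SD of the spots. The changes of these probes are 0.52, 0.44 and 0.56.

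The median changes of the subunits were close. The 48 Mrpl genes had a median change of 0.30, with quartiles of 0.18 and 0.45, and 44 of them were higher upon feeding. The 29 Mrps genes had a median of 0.34, with quartiles of 0.15 and 0.49, and 26 of them were higher. The large minus small difference of the medians was -0.04, and with the normexp background correction its sign turned, to 0.01. The quartiles of the subunits overlapped, and with 1 array a group the difference was not tested. Beyond 2 SDs of replicate spots lay 38 Mrpl genes (79.2%) upward and 1 downward, and 19 Mrps genes (65.5%) upward and 2 downward. Of all genes well above background on both arrays 30.5% lay there upward and 30.6% downward, and of the bright class 34.6% and 31.2%. The changes of the Mrps genes spread a little more, with an SD over genes of 0.29 against 0.23. At least 1.5-fold higher were 5 of 29 Mrps genes (17.2%) and 4 of 48 Mrpl genes (8.33%). These shares stand beside 10.5% of all genes measured and 8.61% of the bright class. The Mrpl share was thus near the background, and the Mrps share rests on 5 genes.

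**Figure D3:**
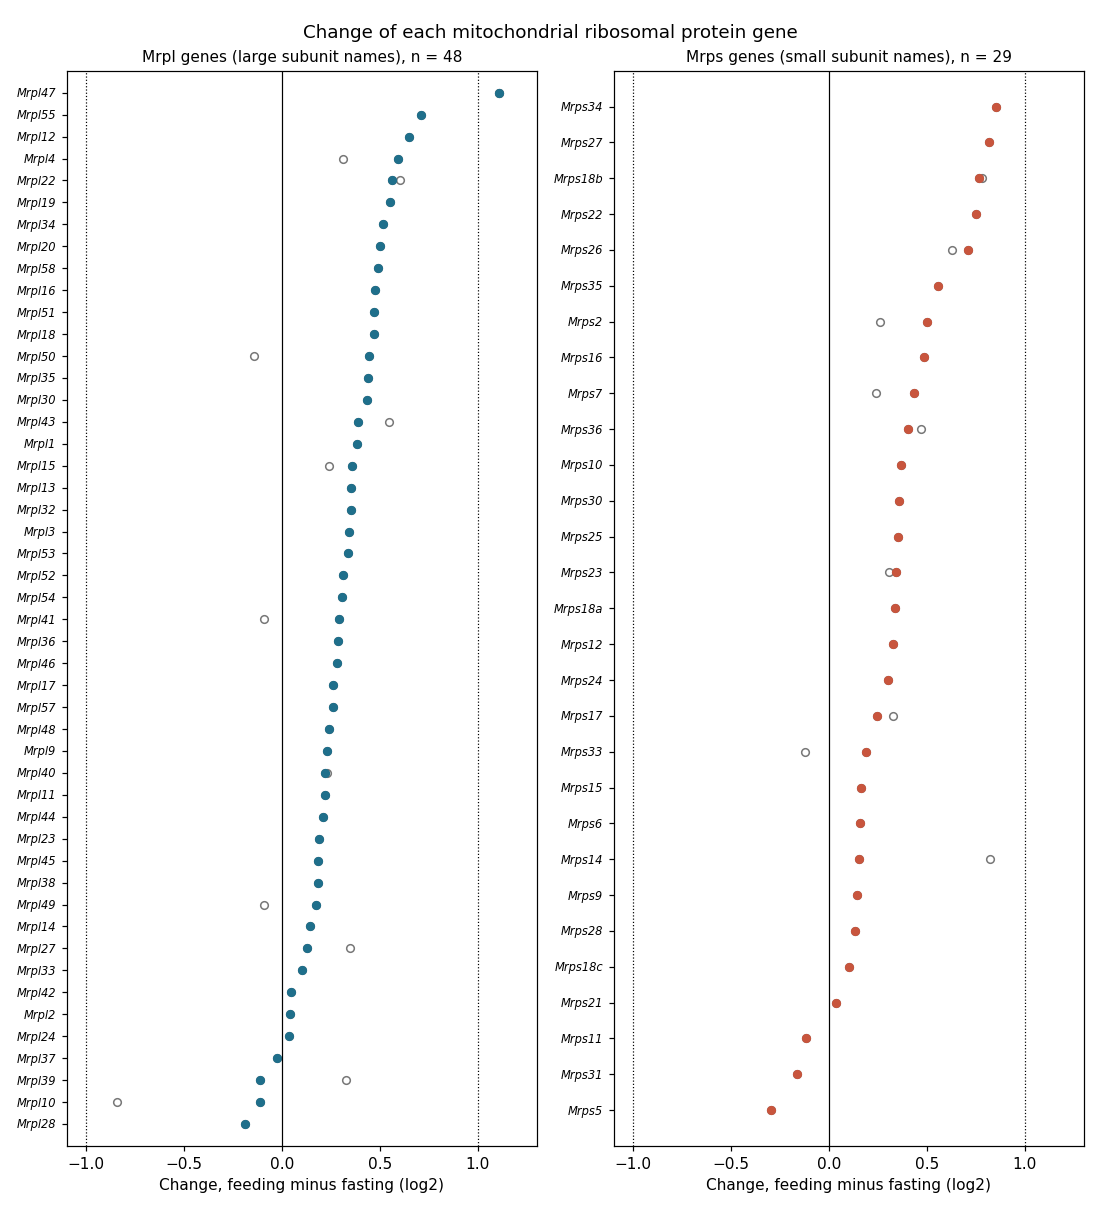
Change of each member (log2, feeding minus fasting, horizontal axis), sorted within the 48 Mrpl genes (left) and 29 Mrps genes (right). Filled points are the probe with the highest mean signal, open points are further probes well above background, and dotted lines mark 2-fold changes. Mrpl47 is the only gene past 2-fold, at 1.11, and 44 Mrpl and 26 Mrps genes lie right of 0.

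Among the large subunit genes, Mrpl47 changed most. This protein is the counterpart of bacterial L29, which lies near the exit of the tunnel. Its signal was 852 upon fasting and 1836 upon feeding, a 2.15-fold difference. Both of its probes gave a change of 1.11, and 2.51% of all genes measured rose by more. The next in order was Mrpl55, found only in mitochondria, with 5421 upon fasting and 8861 upon feeding, a change of 0.71. Mrpl12, whose bacterial counterpart forms the flexible stalk that recruits translation factors, had 5794 and 9083, a change of 0.65. Mrpl4, whose bacterial counterpart lines the exit tunnel, had 8123 and 12246, a change of 0.59, while its second probe gave 0.31. The signal of Mrpl22, also of the tunnel wall, was 5628 upon fasting and 8308 upon feeding, a change of 0.56, and its second probe gave 0.60. All 5 genes moved upward by more than the spread of replicate spots, and Mrpl47 lay apart from the other 4.

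A few large subunit genes did not share this direction. Mrpl28 had a signal of 671 upon fasting and 589 upon feeding, a change of -0.19. Mrpl10, which anchors the stalk that Mrpl12 forms, had 2451 and 2264, a change of -0.11, and its sign turned when arrays were scaled by their medians instead (0.07). Mrpl39, found only in mitochondria, had 5221 and 4832, also a change of -0.11, and was 0.08 with median scaling. The second probe of Mrpl10 fell further, from 918 to 512, a change of -0.84. By the brightest probe, the change of Mrpl28 alone was larger than 2 SDs of replicate spots, and it was -0.08 with median scaling, within that limit. Mrpl37 (-0.03) and Mrpl24 (0.04) were nearly level between the arrays, and Mrpl37 was slightly higher with median scaling (0.14), 75th percentile scaling (0.02) and normexp correction (0.04).

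Among the small subunit genes, Mrps34 had the largest increase. Mrps34 is found only in mitochondria, and its signal was 4255 upon fasting and 7673 upon feeding, a change of 0.85 (1.80-fold). Mrps27, a protein with pentatricopeptide repeats, which are known from RNA-binding proteins, had 490 and 864, a change of 0.82. Mrps18b had 9446 upon fasting and 16051 upon feeding, a change of 0.76, and its second probe gave 0.78. These increases were below 2-fold, except that Mrps34 passed it with median scaling (1.04). Mrps22, a protein whose loss in humans causes a mitochondrial disease, had 2805 and 4725, a change of 0.75. Mrps26 had 4398 and 7194, a change of 0.71, and its second probe gave 0.63. All but Mrps18b of these 5 genes encode proteins that have no bacterial counterpart.

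Only 3 small subunit genes were lower upon feeding. Mrps5, whose bacterial counterpart lies at the entry of the messenger RNA channel, had 1787 upon fasting and 1457 upon feeding, a change of -0.29, the lowest of all members. Mrps31 had 7704 and 6882, a change of -0.16, which became 0.04 with median scaling. Mrps11, whose bacterial counterpart lies on the platform of the small subunit, had 387 and 357, a change of -0.12. The changes of Mrps5 and Mrps31 exceeded 2 SDs of replicate spots, the latter only narrowly, and that of Mrps11 did not. With median scaling Mrps5 was -0.11 and Mrps11 was -0.03, both within that limit. Mrps21 (0.04, and -0.02 with normexp correction) and Mrps18c (0.10) were nearly level.

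Promoters were examined after most members were seen to change in the same direction. They were taken from RefSeq (assembly GRCm38.p6) as 250 bases before to 50 bases after the start, and 68 of the 78 members had 74 promoters there. The sequences shown, 5' to 3' on the strand of the gene, are those of the member with the largest increase, of 4 of the 5 small subunit genes with the largest increases (no promoter was listed for Mrps34), of the member with the lowest change, and of Mrpl46, which starts head to head with Mrps11. Capitals mark the letters of 6 motifs searched on both strands. The letters searched were CCGGAAGT for ETS factors such as GABPA, CGCANGCG for the factor NRF1 and AAGATGGCG for the factor YY1. The other motifs were the E-box, spelled CACGTG, the TATA box, spelled TATAAA, and the box spelled CCAAT. None of these motifs holds another. Mrpl47 is at chr3:32736706-32737005 on the minus strand, Mrps27 at chr13:99344536-99344835 on the plus strand, Mrps18b at chr17:35916391-35916690 on the minus strand, Mrps22 at chr9:98601630-98601929 on the minus strand, Mrps26 at chr2:130563507-130563806 on the plus strand, Mrps5 at chr2:127587176-127587475 on the plus strand, and Mrpl46 at chr7:78783040-78783339 on the minus strand.
Mrpl47: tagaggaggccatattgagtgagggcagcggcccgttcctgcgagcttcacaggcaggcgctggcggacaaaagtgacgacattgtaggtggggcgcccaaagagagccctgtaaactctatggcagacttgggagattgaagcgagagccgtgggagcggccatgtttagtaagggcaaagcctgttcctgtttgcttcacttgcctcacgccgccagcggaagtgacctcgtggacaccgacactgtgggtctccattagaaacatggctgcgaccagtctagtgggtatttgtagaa
Mrps27: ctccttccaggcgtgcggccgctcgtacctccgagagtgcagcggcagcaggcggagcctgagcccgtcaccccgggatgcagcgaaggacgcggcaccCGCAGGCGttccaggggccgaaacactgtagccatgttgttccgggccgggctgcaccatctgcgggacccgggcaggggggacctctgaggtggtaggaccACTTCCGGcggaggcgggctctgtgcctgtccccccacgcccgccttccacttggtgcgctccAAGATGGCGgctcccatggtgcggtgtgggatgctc
Mrps18b: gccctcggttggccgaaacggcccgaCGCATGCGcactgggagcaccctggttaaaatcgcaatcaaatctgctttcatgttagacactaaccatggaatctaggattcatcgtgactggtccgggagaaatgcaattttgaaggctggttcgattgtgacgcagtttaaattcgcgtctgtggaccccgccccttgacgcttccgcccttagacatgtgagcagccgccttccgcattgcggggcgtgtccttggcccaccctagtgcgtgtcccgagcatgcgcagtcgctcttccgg
Mrps22: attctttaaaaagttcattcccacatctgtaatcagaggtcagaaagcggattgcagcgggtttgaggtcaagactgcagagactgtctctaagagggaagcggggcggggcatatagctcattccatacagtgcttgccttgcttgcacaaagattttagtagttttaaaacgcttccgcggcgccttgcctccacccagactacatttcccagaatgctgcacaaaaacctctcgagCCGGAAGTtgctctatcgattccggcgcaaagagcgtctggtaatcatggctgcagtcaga
Mrps26: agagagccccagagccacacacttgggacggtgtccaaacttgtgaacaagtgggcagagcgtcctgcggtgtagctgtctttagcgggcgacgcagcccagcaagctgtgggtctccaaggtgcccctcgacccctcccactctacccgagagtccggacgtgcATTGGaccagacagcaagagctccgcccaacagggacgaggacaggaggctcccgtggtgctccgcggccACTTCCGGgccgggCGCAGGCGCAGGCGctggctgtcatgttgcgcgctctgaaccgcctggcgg
Mrps5: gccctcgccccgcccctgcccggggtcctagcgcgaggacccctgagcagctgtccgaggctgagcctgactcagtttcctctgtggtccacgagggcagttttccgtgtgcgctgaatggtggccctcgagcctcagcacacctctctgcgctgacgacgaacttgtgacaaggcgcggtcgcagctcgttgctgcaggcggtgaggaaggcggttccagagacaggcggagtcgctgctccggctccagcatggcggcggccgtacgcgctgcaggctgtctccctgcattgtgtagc
Mrpl46: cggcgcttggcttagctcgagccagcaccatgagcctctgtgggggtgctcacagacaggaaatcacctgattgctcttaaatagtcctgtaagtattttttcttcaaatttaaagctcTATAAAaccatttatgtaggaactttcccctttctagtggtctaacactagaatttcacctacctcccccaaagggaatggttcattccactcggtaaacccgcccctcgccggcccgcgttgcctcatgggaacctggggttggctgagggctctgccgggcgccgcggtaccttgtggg
The promoters of Mrps27 and Mrps26 each held the ETS and NRF1 letters, with the YY1 letters in Mrps27 and CCAAT in Mrps26, where 2 matches of NRF1 overlap. That of Mrps18b held only NRF1 letters and that of Mrps22 only ETS letters. Those of Mrpl47, with the largest change, and Mrps5, with the lowest, held none of the 6, and that of Mrpl46 held only TATAAA.

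The letters of 3 motifs were more frequent in promoters of members than in all promoters. The ETS letters were found for 17.6% of members, beside 4.31% of all 27025 genes with a promoter and 10.4% of genes of the bright class. NRF1 letters were found for 29.4%, beside 9.22% and 20.5%, and YY1 letters for 11.8%, beside 1.64% and 4.27%. TATAAA was found for 5 members (7.35%), beside 15.7% of all genes and 10.1% of the bright class, so its share was nearer that of the bright class. The E-box (7.35%, beside 8.09% and 12.1%) and the CCAAT box (39.7%, beside 41.1% and 43.8%) were near the shares of all genes. Promoters of members also held many CG pairs, with a median of 21.5, as did those of the bright class (20), while the median of all promoters was 7. The median change upon feeding was 0.36 for members with the ETS letters and 0.28 for those without, 0.26 and 0.30 with and without NRF1 letters, and 0.29 and 0.30 with and without YY1 letters. It was 0.28 and 0.31 with and without TATAAA, and 0.32 and 0.28 with and without CCAAT. The widest gap was that of the E-box, with a median of 0.10 for the 5 members that held it and 0.31 for the others, and none of these gaps was tested. A match of letters is a description and not a bound site.

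Many members start close to another gene on the opposite strand, an arrangement in which both may share a promoter. A start within 1000 bases on the other strand, examined after the changes were known, was found for 25 of the 68 members with a promoter (36.8%), beside 12.2% of all genes with a promoter and 20.7% of those of the bright class. A measured partner that is no member itself was found for 21 of them, with a median partner change of 0.30. Of these partners 18 were higher upon feeding and 3 were lower. Among all genes well above background on both arrays 49.8% were higher, and the head-to-head partners of other genes were not examined. Mrpl46 and Mrps11, a large and a small subunit gene whose starts lie 42 bases apart, did not move together. Mrpl46 had a signal of 648 upon fasting and 786 upon feeding, a change of 0.28, while Mrps11 changed by -0.12.

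Several head-to-head pairs were close in change. Mrps12 (0.32) was paired with Sars2 (0.35), a synthetase that charges mitochondrial transfer RNA. Mrpl43 (0.39) was paired with Twnk (0.42), the mitochondrial DNA helicase, and Mrpl18 (0.47) with Tcp1 (0.45), a subunit of the cytosolic chaperonin. Other pairs were far apart. Mrpl47 (1.11) starts 308 bases from Ndufb5, a complex I subunit, whose signal was 18450 upon fasting and 19748 upon feeding, a change of 0.10. Mrps27 (0.82) was paired with Ptcd2, with 417 and 996, a change of 1.25. Mrps5 (-0.29) was paired with Zfp661 (0.30). The partners lower upon feeding were Klc4 (-0.31), Hira (-0.08) and Ska3 (-0.53), and their members Mrpl2 (0.04), Mrpl40 (0.22) and Mrpl57 (0.26) were not lower.

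**Figure D4:**
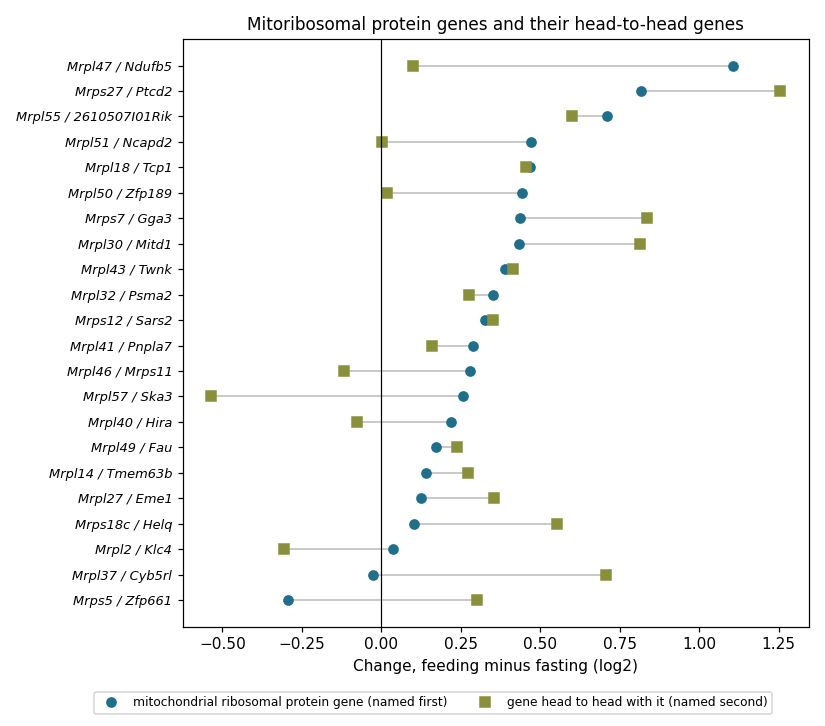
Change (log2, feeding minus fasting) of members (circles) and of the gene that starts head to head with each within 1000 bases (squares), joined by a line, sorted by the change of the member. The pairs include Mrps12 and Sars2, at 0.32 and 0.35, and Mrpl47 and Ndufb5, at 1.11 and 0.10.

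Members were also grouped by listed places in the ribosome, namely the tunnel rim, the central protuberance, the stalk and the small subunit head. As listed, each place had a median change between 0.19 and 0.23. The median of all 77 members was 0.31, and 90.9% of them were higher upon feeding. These differences were not tested. Proteins around the rim of the exit tunnel, where the new chain leaves for the inner membrane, had 7 of 8 listed symbols found, 6 of these genes higher, with a median of 0.19. All 6 genes of the central protuberance, the contact to the small subunit and the transfer RNAs, were higher, with a median of 0.23. The stalk was mixed, with Mrpl12 at 0.65, Mrpl11 at 0.22 and Mrpl10 at -0.11 (0.07 with median scaling). Of the head of the small subunit 7 of 8 listed genes were found, 6 of them higher, with a median of 0.19. The listed symbols not found, Mrpl29 of the rim and Mrps3 of the head, stand for the counterparts of bacterial L29 and S3, which the array holds as Mrpl47 (1.11) and Mrps24 (0.30). Counted there, a choice made after the values were seen, the rim has 7 of 8 genes higher and a median of 0.20, and the head 7 of 8 higher and a median of 0.24. The rim holds the member with the largest increase only through this later count. As listed, its highest change was 0.56, that of Mrpl22.

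Some members sit elsewhere than their symbols say. Mrps30 is placed in the large subunit, and its signal was 1986 upon fasting and 2546 upon feeding, a change of 0.36. The 3 paralogs of the bacterial S18 protein differed. Mrps18b, placed in the small subunit, changed by 0.76, Mrps18a, placed in the large subunit, by 0.34 (from 1982 to 2500), and Mrps18c, also of the small subunit, by 0.10 (from 7012 to 7526). Mrps36, now counted to the 2-oxoglutarate dehydrogenase complex, changed by 0.41 (from 3084 to 4085). With Mrps30 and Mrps18a moved to the large subunit and Mrps36 left out, the medians were 0.31 for 50 large subunit genes and 0.31 for 26 small subunit genes.

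Bacterial ancestry was approximated by number, since Mrpl symbols up to 36 and Mrps symbols up to 21 mostly follow bacterial proteins and higher numbers mostly do not. The median change of the Mrpl genes was 0.35 for 27 genes up to number 36 and 0.28 for 21 genes from 37 on. For the Mrps genes it was 0.20 for 16 genes up to number 21 and 0.36 for 13 genes from 22 on. The order thus differed between the subunits, and over both it was 0.32 for 43 genes and 0.31 for 34 genes. The split is not exact, as Mrpl47 and Mrps24 show.

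Different probes of a member mostly gave the same direction. Of 22 members with several probes, 21 had at least 2 probes well above background, with a median gap between the lowest and highest change of 0.20. All probes were higher upon feeding in 15 of these members and all were lower in 1, Mrpl10, whose probes gave -0.11 and -0.84, the largest gap (0.73). The probes differed in direction in 5 members. In these the values of the brighter and the dimmer probe were 0.29 and -0.09 for Mrpl41, 0.17 and -0.09 for Mrpl49, 0.44 and -0.14 for Mrpl50, 0.19 and -0.12 for Mrps33, and -0.11 and 0.32 for Mrpl39. The directions of these 5 genes and the size of the change of Mrpl10 therefore depend on the probe. The probes of Mrps33 belong to different transcripts of the gene, and the second probe of Mrps25 stayed near background in both groups.

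Mitochondrial ribosomal proteins that carry other names shifted like the members. All 5 were higher upon feeding, with a median of 0.35, namely Chchd1 (0.40), Gadd45gip1 (0.38), Ptcd3 (0.35), Aurkaip1 (0.29) and Dap3 (0.09). All 5 lie in the bright class, of which 51.8% of genes were higher. They are part of the same particle but were not found by the symbol rule. Together with the translation machinery described next, they show the values of genes that work with the members, from lists written from general knowledge.

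The factors that drive mitochondrial translation were higher to a similar extent. Of 14 measured genes, mostly initiation, elongation, termination and membrane insertion factors, 11 (78.6%) were higher upon feeding, with a median of 0.28. Among all genes well above background on both arrays 49.8% were higher. The largest changes were those of the release factor Mtrf1l (0.48), the initiation factor Mtif3 (0.47) and Taco1 (0.46), which activates translation of a cytochrome c oxidase subunit. The aminoacyl-tRNA synthetases of mitochondria had a median of 0.17, with 12 of 17 higher. Rars2 (0.62), Ears2 (0.62) and Cars2 (0.59) changed most. Mitoribosome assembly factors had a median of 0.21, with 18 of 24 higher. The rRNA methyltransferase Mrm3 had a signal of 155 upon fasting and 319 upon feeding, a change of 1.04. In all, 2 of the 24 were at least 2-fold higher, beside 3.29% of all genes measured. The other was Fastkd2, a dim gene well above background upon feeding only. Its signals were 13.9 upon fasting and 29.3 upon feeding, a change of at least 1.02. Another rRNA methyltransferase, Mrm2, changed by 0.92 from a dim signal of 38.2, and Rcc1l by 0.56. In the other direction Mettl15 changed by -0.49, Ddx28 by -0.48 and Mterf4 by -0.40.

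Genes that control mitochondrial transcription and nuclear genes for mitochondria showed no common direction. Of 5 genes of mitochondrial transcription 3 were higher, with a median of 0.26, and Tfam, which packages mitochondrial DNA and starts its transcription, changed by 0.53. Of 9 regulators of nuclear genes for mitochondria 5 were higher, with a median of 0.03. The share over all genes well above background on both arrays was 49.8%. Ppargc1a, the coactivator induced in fasting liver, had a signal of 1400 upon fasting and 146 upon feeding, a change of -3.26. Its relative Ppargc1b had 124 and 40.3, a change of -1.62, and Esrra, a nuclear receptor that works with both, had 4788 and 7163, a change of 0.58. Ppargc1a and Ppargc1b thus moved in the opposite direction to most members. Their relative Pprc1 did not, with a change of 0.48. Of the rest of the list, Gabpb1 changed by 0.47, Nrf1 by 0.42, Gabpa by 0.03, Yy1 by -0.23 and Myc by -0.49.

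Cytosolic ribosomal proteins and nuclear subunits of the respiratory chain were set beside the members. The 80 cytosolic ribosomal protein genes had a median change of 0.18, with quartiles of 0.10 and 0.25. In all 73 of them (91.2%) were higher upon feeding, a share like that of the members (90.9%), but only 1 was at least 1.5-fold higher. The 83 respiratory chain genes had a median of 0.13, with quartiles of 0.00 and 0.23, and 63 (75.9%) were higher. Most genes of both groups are bright, and of the bright class 51.8% were higher and 8.61% at least 1.5-fold higher. The lower quartile of the members (0.16) lay below the median of the cytosolic ribosomal proteins, so the groups overlap. With 1 array a group the differences between these medians were not tested.

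**Figure D5:**
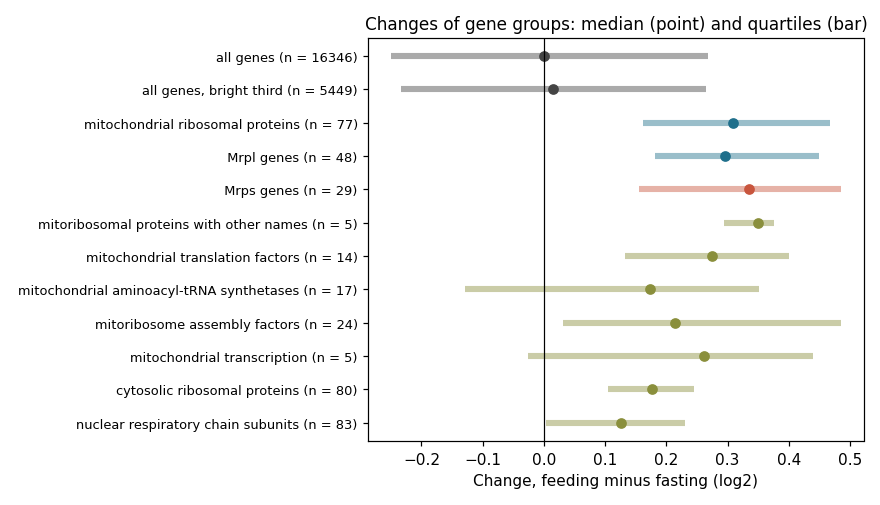
Median (point) and quartiles (bar) of the change (log2, feeding minus fasting) over the measured genes of each group, with the number of genes. The medians are 0.31 for the members, 0.30 for Mrpl genes, 0.34 for Mrps genes, 0.18 for cytosolic ribosomal proteins, 0.13 for respiratory chain subunits and 0.01 for all genes of the bright class.

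Markers of cell types also moved between the arrays. In bulk liver RNA, fewer cells of a type and less RNA per cell cannot be told apart. Of 7 hepatocyte markers 6 were lower upon feeding, with a summed signal of 657573 upon fasting and 567086 upon feeding. Albumin (Alb) changed by -0.07, and Tat, a tyrosine-degrading enzyme induced by fasting, by -0.97. Of 30 listed markers of other cell types 27 were measured, of which 9 were higher and 15 lower, with a median of -0.11, and their summed signal was 102102 and 81032. Among them all 4 endothelial genes were lower, including Pecam1 (-1.04). The cholangiocyte genes did not move together, with Sox9 at 2.11, Epcam at 0.08 and Krt19 at -0.31. Nor did those of the pancreas, of which Pnlip stayed near background in both groups, Ctrb1 changed by -0.40 and Cela1 by 0.24, and Prss2, well above background upon feeding only, had a change of at least 1.37. The part of cell composition in the changes of the members was not tested.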

How the data were processed

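Liver RNA was measured on 2 Agilent Whole Mouse Genome arrays, 1 for the fasting and 1 for the feeding group, with pooled RNA of 3 mice per group labelled with Cy3. The authors deposited the output of Agilent Feature Extraction 11.0.1.1 for each array, and the values used are intensities per spot, the processed signal with background subtracted, the median signal and the local background. These deposited intensities are not normalized between arrays, whereas the authors applied quantile normalization and a 2-fold filter afterwards. The value table of the series holds the mean local background and was not used. The depth of an array is not a count, and the number of arrays limits the precision.

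Control spots and outlier spots were left out, processed signals were taken to log2 and averaged for each probe, and quantile normalization then put both arrays on 1 distribution, which also equalises their medians. Probes were named through their RefSeq transcripts in the table of assembly GRCm38.p6, and 27218 of 39402 matched. The probe with the highest mean signal stood for a gene. A gene was measured when the majority of its spots were well above background on at least 1 array, and where this held on 1 array only, its change was a lower bound. No member needed a bound. Signals of different probes are not comparable as levels of transcripts.

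No test was possible with 1 array per group. The alternatives were scaling by the median or the 75th percentile, loess with a span of 0.3, normexp on the median signal with an offset of 50 (limma 3.58.1, R 4.3.3), other ways to combine probes, other filters on dim probes, no lower bound, subunits by place, and thresholds of 1.5-fold and 3-fold. The procedure (Python 3.11.15, pandas 2.3.3, statsmodels 0.14.6) was tested on simulated data in which few probes, all well above background, were changed. This simulation does not cover arrays where many genes differ, so it does not show how the normalization acts on these 2 arrays. The genes named were every member past 2-fold, the 5 largest increases and the 5 largest decreases of each subunit, Mrps30, Mrps18a, Mrps18b, Mrps18c, Mrps36, members not well above background, members whose probes differ in direction or by over 1, and at most 3 genes of each other list. Other genes were named after their values were seen, as partners, in a count of 5 or fewer, or to give further values of a list. The members and lists were chosen with earlier results of these data known.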

Additional observations from a re-analysis of the deposited data

How the results depend on the processing

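The median change of the members stayed between 0.29 and 0.37 (log2) under scaling by the 75th percentile, loess, the normexp background correction, the mean of a gene's probes, every probe counted and 3 other treatments of dim probes. It was 0.50 with median scaling, with 0.49 for the Mrpl genes and 0.52 for the Mrps genes, where the median over all genes was 0.09. Most members are bright, and the median over the bright class was not taken under this setting. Neither the median of the members nor those of the subunits changed sign under any of these settings. The number of members lower upon feeding was 7, 12 when every probe was counted and 3 with median scaling, and lay between 6 and 8 under the other settings. The number past 2-fold was 1, 2 when every probe was counted (both probes of Mrpl47), 2 with median scaling, 9 at a threshold of 1.5-fold and 0 at 3-fold, and 1 under the other settings; the cause of these differences was not tested, apart from the threshold itself and the larger number of probes. A member was said to move when its value shifted by more than the SD of replicate spots of the bright class (0.08), whatever its own class. Of the 27 members named by the rule, 27 moved with median scaling, 7 with 75th percentile scaling, 7 with the mean of probes and 3 with normexp. Direction changed in 4, 1, 1 and 2 of the 27, all of them members with changes between -0.16 and 0.04. No paired analysis was possible because each group has 1 array, and for the same reason no replicate could be left out.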
